A study of Homo sapiens with 12 samples.

Results

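The replication-dependent histone genes code for the H1, H2A, H2B, H3 and H4 proteins that package newly made DNA. They were taken here as all gene symbols that start with HIST1H, HIST2H, HIST3H or HIST4H in the gene count tables, which gave 73 of 26334 genes. There were 6 H1, 18 H2A, 20 H2B, 14 H3 and 15 H4 genes among them. Not all of these symbols need code for a protein, since HIST1H2APS1, HIST2H2BA and HIST2H2BC had no exon in the Gencode protein-coding models. RNA was sequenced from A549 cells, a human lung tumour line with epithelial features, after infection with lentivirus carrying shControl or shRNF113A and selection with puromycin. RNF113A is a zinc finger and RING domain protein of the spliceosome. Each kind of cell was left untreated or was treated with Cisplatin, a DNA crosslinking drug, at 25 µg/ml for 20 h, and each of the 4 conditions had 3 libraries described as biological replicates. All cells had thus been infected and selected.

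Most messenger RNAs end in a poly(A) tail, but those of replication-dependent histone genes end at a short hairpin, the histone stem-loop. The stem-loop is bound by SLBP, and the transcript is cut just after it by a machinery that contains the U7 snRNP and shares the endonuclease CPSF3 with the polyadenylation complex. Their levels rise in S phase, when NPAT drives their transcription, and fall when DNA synthesis stops. The libraries were made by poly(A) selection, so the values below count those histone transcripts that were captured by it, and a change in the captured share cannot be told apart from a change in the total. In these bulk libraries fewer cells in S phase and less RNA per cell cannot be told apart either.

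The sequence that marks these genes was found beside 71 of 73 genes in the human genome (GRCh37). It has a stem of 6 base pairs and a loop of 4 bases, and 10 forms of it occurred. The form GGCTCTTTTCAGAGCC was present in 40 genes, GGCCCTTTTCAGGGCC in 10 and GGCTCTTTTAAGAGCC in 10. The stem-loops of 5 genes that the results turn on are shown because they include the most abundant members and the 3 commonest forms, plus the variant loop of HIST1H3E. Capitals mark the stem and loop, with 6 flanking bases on each side.
HIST1H2BK (H2B; chr6:27114139-27114166, minus strand): cccaaaGGCTCTTTTAAGAGCCacttaa
HIST1H1C (H1; chr6:26055966-26055993, minus strand): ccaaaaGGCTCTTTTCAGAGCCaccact
HIST1H2AC (H2A; chr6:26124891-26124918, plus strand): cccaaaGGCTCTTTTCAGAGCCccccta
HIST1H3E (H3; chr6:26225818-26225845, plus strand): tccaaaGGCTCTTCTCAGAGCCaaccac
HIST1H4H (H4; chr6:26285353-26285380, minus strand): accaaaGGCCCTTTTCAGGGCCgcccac

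The genes lie in 4 clusters. On chromosome 6, 56 HIST1 genes fell between 25726291 and 27861669. The 12 placed HIST2 genes and the 3 HIST3 genes were on chromosome 1, and HIST4H4 was on chromosome 12. In the RefSeq transcripts carried in the deposited hg19 annotation, 64 genes ended at the stem-loop or fewer than 100 exonic bases after it, with a median length of 459.5 bases. Exonic sequence ran past the stem-loop in 2 genes, HIST2H2BE by 1728 bases and HIST2H2BC by 110 bases. Another 5 genes, HIST1H2BK, HIST1H2BD, HIST2H2BF, HIST2H2BA and HIST1H3D, had 2 or more exons; the last of these still ended 5 bases past its stem-loop. HIST1H2BK is an example of this form. Its model spans 8073 bases past the stem-loop, leaves the stem-loop out of its exons, and has the polyadenylation signal AATAAA or ATTAAA near its end. HIST1H2APS1 had no stem-loop, and HIST2H3C was not placed because no RefSeq transcript in that annotation carried its symbol.

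The promoters also shared letters that the selection of genes had not used. RefSeq promoters (GRCh38.p14, from 250 bases before to 50 bases after the start) were matched for 60 of 73 genes. The letters CCAAT, on either strand, were in 83.3% of them and in 34.6% of 35116 promoters. TATAAA was in 66.7% against 11.5%, and ATTTGCA, the core of the octamer motif, in 36.7% against 4.20%. CCAAT was in every H1, H2A, H2B and H3 promoter matched but in only 23.1% of H4 promoters. ATTTGCA was in 68.8% of H2A and 69.2% of H2B promoters and in no H1 or H4 promoter. The 250 bases before the start of the 2 genes with the highest level are shown to set an H2B promoter beside an H1 promoter, read on the strand of the gene. Capitals mark these motifs in either orientation, and overlapping motifs form 1 run.
HIST1H2BK (GRCh38.p14 chr6:27146859-27147108, minus strand): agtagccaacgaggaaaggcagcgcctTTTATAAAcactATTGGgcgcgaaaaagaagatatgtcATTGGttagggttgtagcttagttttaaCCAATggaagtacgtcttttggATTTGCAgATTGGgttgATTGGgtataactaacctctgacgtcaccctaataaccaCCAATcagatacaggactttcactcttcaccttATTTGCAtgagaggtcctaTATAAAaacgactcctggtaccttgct
HIST1H1C (GRCh38.p14 chr6:26056471-26056720, minus strand): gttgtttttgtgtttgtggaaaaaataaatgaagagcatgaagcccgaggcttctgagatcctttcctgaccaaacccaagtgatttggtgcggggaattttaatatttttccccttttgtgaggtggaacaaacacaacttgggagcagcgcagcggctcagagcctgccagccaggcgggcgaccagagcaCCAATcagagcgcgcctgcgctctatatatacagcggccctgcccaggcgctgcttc

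The libraries held 33859097 to 56071514 read pairs, of which 26220526 to 45721152 were assigned to genes on the expected strand. RNF113A itself was at 19.5 to 20.3 read pairs per 1000000 (CPM) in the untreated shControl libraries and at 15.3 to 16.8 CPM in the untreated shRNF113A libraries. In treated cells the ranges overlapped, at 27.7 to 31.5 and 24.3 to 29.9 CPM. The depletion of its mRNA was therefore small in these libraries (log2 fold change of -0.23 ± 0.07 (SE), adjusted p = 0.0185 in edgeR). Of 6 epithelial markers all were tested and KRT8 and KRT18 were abundant, while KRT19 was low, at 0.674 to 5.32 CPM. The summed CPM of 10 markers of other cell types was 6.27 to 15.03 in 11 libraries and 36.9 in shControl untreated replicate 2, and CD3E, PTPRC and DCN were at or near 0. The value of 15.03 was that of shControl Cisplatin replicate 2. Epithelial markers summed to 8522 CPM in shControl untreated replicate 2, against 15000 and 14358 in replicates 1 and 3. In shControl Cisplatin replicate 2 they summed to 4615 CPM, against 6597 and 6136. Of the epithelial markers 3 were called lower with Cisplatin and 2 higher with depletion, against 11.2% and 5.47% of all genes. Of 3 other markers tested 1 was called higher and 1 lower with depletion, against 5.47% and 5.52%. None of these markers had a called interaction, and their part in the histone values was not tested. In shControl untreated replicate 3, 24 of the 35 histone genes tested were higher than in replicates 1 and 2. The median ratio to the mean of those 2 was 1.84 over all 35. The share over all genes was not counted, so this count is not read as a trait of the histone genes. The summed histone level of replicate 3, 90.0 CPM, lay between those of replicate 1 (65.5 CPM) and replicate 2 (94.1 CPM). RMRP, the RNA of RNase MRP, which has no poly(A) tail, was at 15.5 CPM in replicate 3 and at 0.332 and 2.90 CPM in the other 2.

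Histone transcripts were rare in these libraries, and a few genes held most of the reads. In each library 1280 to 5178 read pairs fell on the 73 genes, which was 28.3 to 176 per 1000000 assigned. HIST1H2BK held 41.4% of all 41072 histone read pairs, and the 5 genes with the most reads held 79.1%. By contrast, 12 genes had no read pair in any library. They included the identical copies HIST2H4A and HIST2H4B, HIST2H2AA3 and HIST2H2AA4, and HIST2H3A, of which every 73-base word was shared with another histone gene and whose reads therefore could not be assigned to one place. HIST1H2AD, also without a read pair, lies within the span of HIST1H3D on the same strand, so its reads may have been ambiguous. HIST1H4J and HIST1H4K shared 90.5% and 91.1% of their words and HIST1H2AI 65.5%, so the values of these genes are uncertain. Another 26 genes had at most 73 read pairs in all and were not tested. The remaining 35 genes passed the filter on low counts, and a gene could pass through the condition where it was high, so counts and medians over these 35 describe them only.

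Per kilobase of exon the order was led by genes of different forms. HIST1H2BK was at 49.0 CPM per kb on average over the 12 libraries, HIST1H1C, the linker histone H1.2, at 27.4, HIST1H2BD at 10.3 and HIST1H2AC at 7.55. HIST2H2BE, with its long exon, was at 1.86 CPM per kb over all 12 libraries, with means from 0.742 in treated shControl to 3.37 in treated shRNF113A cells. HIST3H2A at 3.90 and HIST1H2BJ at 3.58 CPM per kb did not separate, since their ranges over the libraries overlapped. The plot of level against exon length shows that the spliced form did not by itself go with a high level: HIST2H2BA was at 0.0185 and HIST1H3D at 0.00518 CPM per kb. The value of HIST1H3D is uncertain, since HIST1H2AD lies within its span on the same strand and reads in their overlap could not be assigned to a single gene.

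**Figure D1:**
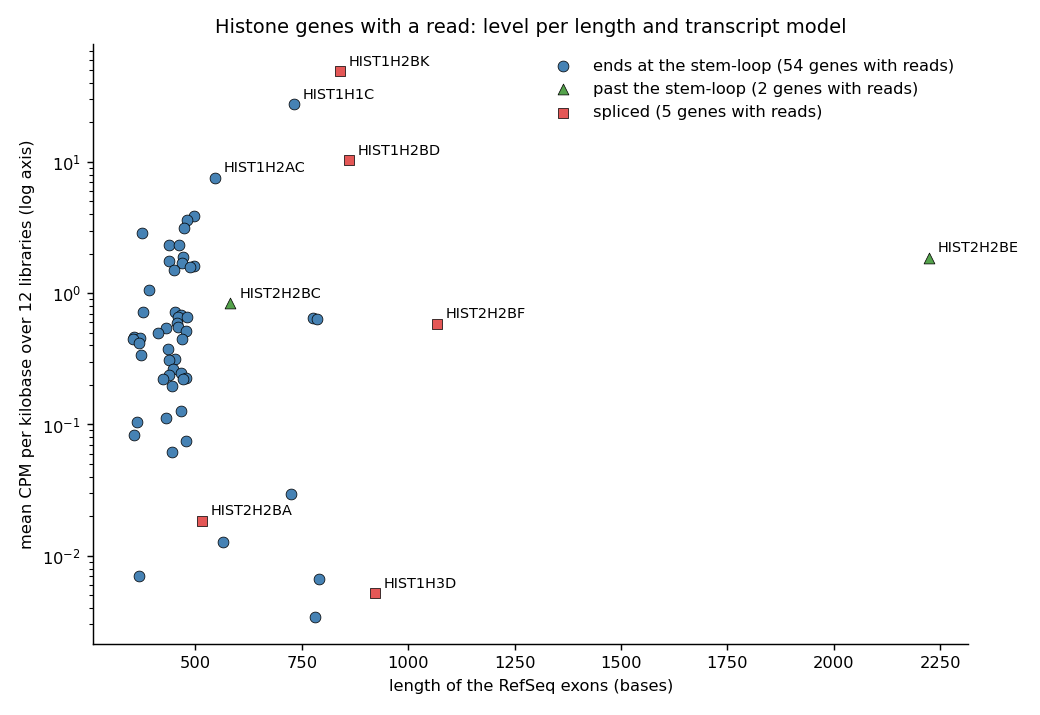
Mean level of each histone gene with at least 1 read pair, in CPM per kilobase on a log axis, against the length of its RefSeq exons in bases, with the transcript model shown by colour and shape. HIST1H2BK at 49.0 and HIST1H1C at 27.4 CPM per kb lie above all other genes, and the spliced genes are spread over the whole range.

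The question of the experiment was how Cisplatin and RNF113A depletion, alone and together, change gene expression. The summed histone level was lowest in treated shControl cells and highest in shRNF113A cells. It was 65.5, 94.1 and 90.0 CPM in the untreated shControl libraries and 33.7, 31.2 and 27.5 CPM after Cisplatin. In shRNF113A cells it was 133, 136 and 147 CPM without and 136, 121 and 173 CPM with Cisplatin. The 2 shControl conditions did not overlap, and every shRNF113A library was above every shControl library, whereas the 2 shRNF113A conditions overlapped. Treated shRNF113A cells thus held 4.65 times the summed level of treated shControl cells, and untreated ones 1.67 times that of untreated shControl cells.

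The summed levels of H1, H2A, H2B and H3 were lower after Cisplatin in shControl cells with no overlap between libraries, while those of H4 overlapped. In shControl cells the mean summed level before Cisplatin was 2.22 times that after it for H1, 3.36 times for H2A, 2.79 times for H2B, 2.74 times for H3 and 2.47 times for H4. Without shControl untreated replicate 3 the ratio for H4 was 1.54. In shRNF113A cells H3 was 4.46 ± 0.343 CPM (SD, n = 3) without and 8.5 ± 1.4 CPM with Cisplatin, and H4 was 2.89 ± 0.876 and 4.79 ± 0.255 CPM. H2B, at 89.3 ± 2.62 and 86.6 ± 16.6 CPM, and H1, at 27.7 ± 3.41 and 31.9 ± 7.05 CPM, overlapped between the 2 conditions. H2A was at 14.5 ± 1.25 CPM without and 11.4 ± 1.53 CPM with the drug. That difference of H2A rested on HIST1H2AC, since without it the log2 ratio of H2A changed from -0.34 to 0.23.

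**Figure D2:**
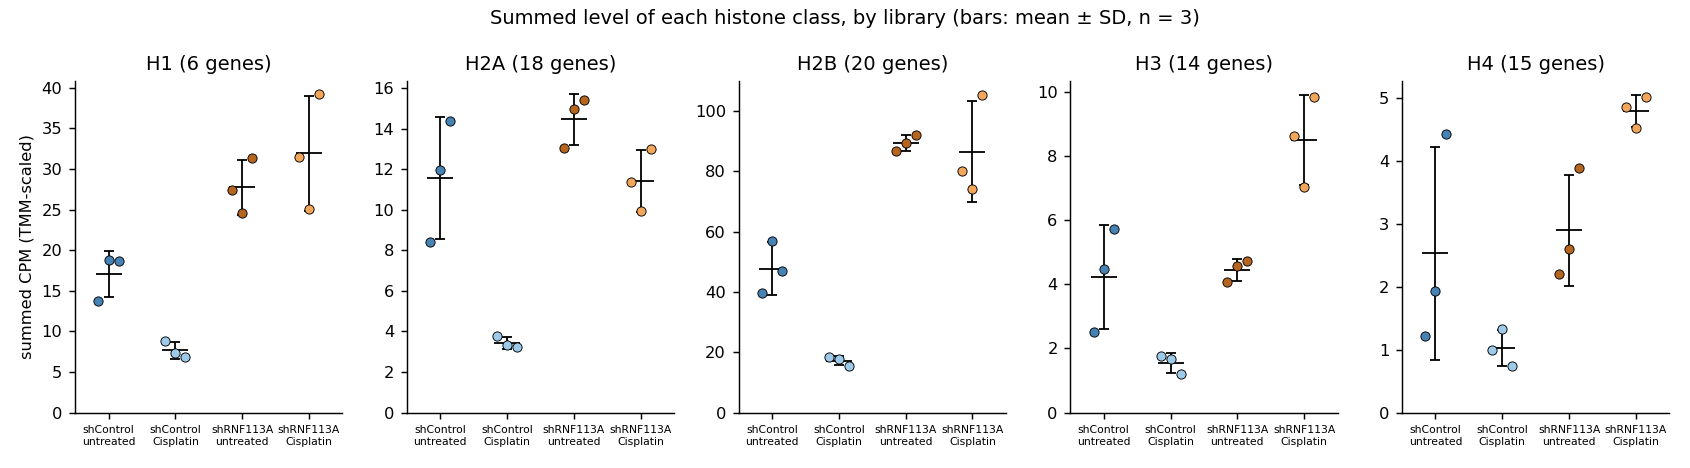
Summed CPM of all genes of each histone class in each of the 12 libraries, in 1 panel per class, with points for libraries and bars for the mean ± SD of 3 libraries. The treated shControl condition has the lowest mean in every class, and H3 and H4 are highest in the treated shRNF113A libraries.

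Of the 35 histone genes tested, 21 were lower after Cisplatin in shControl cells and 0 were higher (edgeR quasi-likelihood test without a replicate block). A call was made at a Benjamini-Hochberg adjusted p under 0.05 with a fold of 2 or more. Over all 15352 genes, 10.6% were called lower and 9.16% higher, and the median log2 fold change was -1.61 for the histone genes and -0.01 for all genes. Without shControl untreated replicate 3 the count was 12. HIST1H2BK, which codes for an H2B and was the most abundant, was at 25.9, 39.1 and 26.8 CPM untreated and at 10.9, 11.5 and 9.09 CPM treated (log2 fold change of -1.55 ± 0.17 (SE), adjusted p = 9.58e-06 in edgeR). The linker histone gene HIST1H1C was at 13.3, 18.0 and 14.8 CPM against 8.23, 6.81 and 6.53 CPM (-1.10 ± 0.17, adjusted p = 0.000179). Neither gene overlapped between the conditions.

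HIST1H2AC, an H2A gene, fell most, from 3.95, 4.71 and 5.20 CPM to 0.684, 0.890 and 0.575 CPM (-2.69 ± 0.19, adjusted p = 2.51e-07). HIST1H2BD, an H2B gene with a spliced form, was at 7.32, 11.2 and 10.1 CPM against 2.74, 2.81 and 2.45 CPM (-1.84 ± 0.16, adjusted p = 1.47e-06). The other 2 largest falls were those of the H3 genes HIST1H3J (-2.66 ± 0.91, adjusted p = 0.0259) and HIST1H3C (-2.51 ± 0.52, adjusted p = 0.00141), which rest on 0 to 30 and 2 to 27 read pairs in a library. Both had their highest count in shControl untreated replicate 3. HIST2H2BE at -0.67 and HIST1H2BJ at -0.67 on the log2 scale did not reach the fold limit, and HIST1H3E at -0.36 was not past the adjusted p either. In 20 of the 35 genes all 3 treated libraries were below all 3 untreated ones, against 27.4% of all genes.

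In shRNF113A cells 8 histone genes were higher after Cisplatin and 1 was lower. Over all genes 11.6% were called higher and 11.5% lower, and the median log2 fold change was 0.59 for the histone genes and 0.06 for all genes. The share of histone genes called higher was 22.9%. HIST1H2AC was the gene that fell, from 7.25, 8.19 and 7.63 CPM to 3.94, 3.18 and 3.29 CPM (-1.15 ± 0.17, adjusted p = 9.61e-05). HIST1H2BK was at 63.4, 64.7 and 64.6 CPM without and 54.4, 51.1 and 71.6 CPM with Cisplatin, and HIST1H1C at 26.9, 24.1 and 29.5 CPM against 30.6, 23.9 and 38.3 CPM. These 2 genes overlapped between the conditions, at -0.12 ± 0.16 and 0.21 ± 0.17 on the log2 scale.

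The rises were carried by low genes, mostly of the H3 and H4 classes. HIST1H4C rose most (2.26 ± 0.59, adjusted p = 0.00516), from 2, 4 and 14 read pairs to 25, 28 and 29. HIST2H3D followed (2.23 ± 0.48, adjusted p = 0.00165), from 2, 8 and 7 to 24, 19 and 24 read pairs. HIST1H3A (2.21 ± 0.46, adjusted p = 0.00120) went from 4, 4 and 3 to 19, 9 and 15 read pairs. Among the genes with the highest CPM, HIST1H3E was at 0.979, 0.893 and 0.738 CPM without and 2.20, 2.35 and 2.43 CPM with the drug (1.41 ± 0.23, adjusted p = 0.000182), and HIST1H3B at 0.582, 0.735 and 0.953 against 1.74, 1.39 and 2.43 CPM (1.29 ± 0.46, adjusted p = 0.0284). All 3 treated libraries were above all 3 untreated ones in 14 of the 35 genes, a share close to the 39.9% of all genes.

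**Figure D3:**
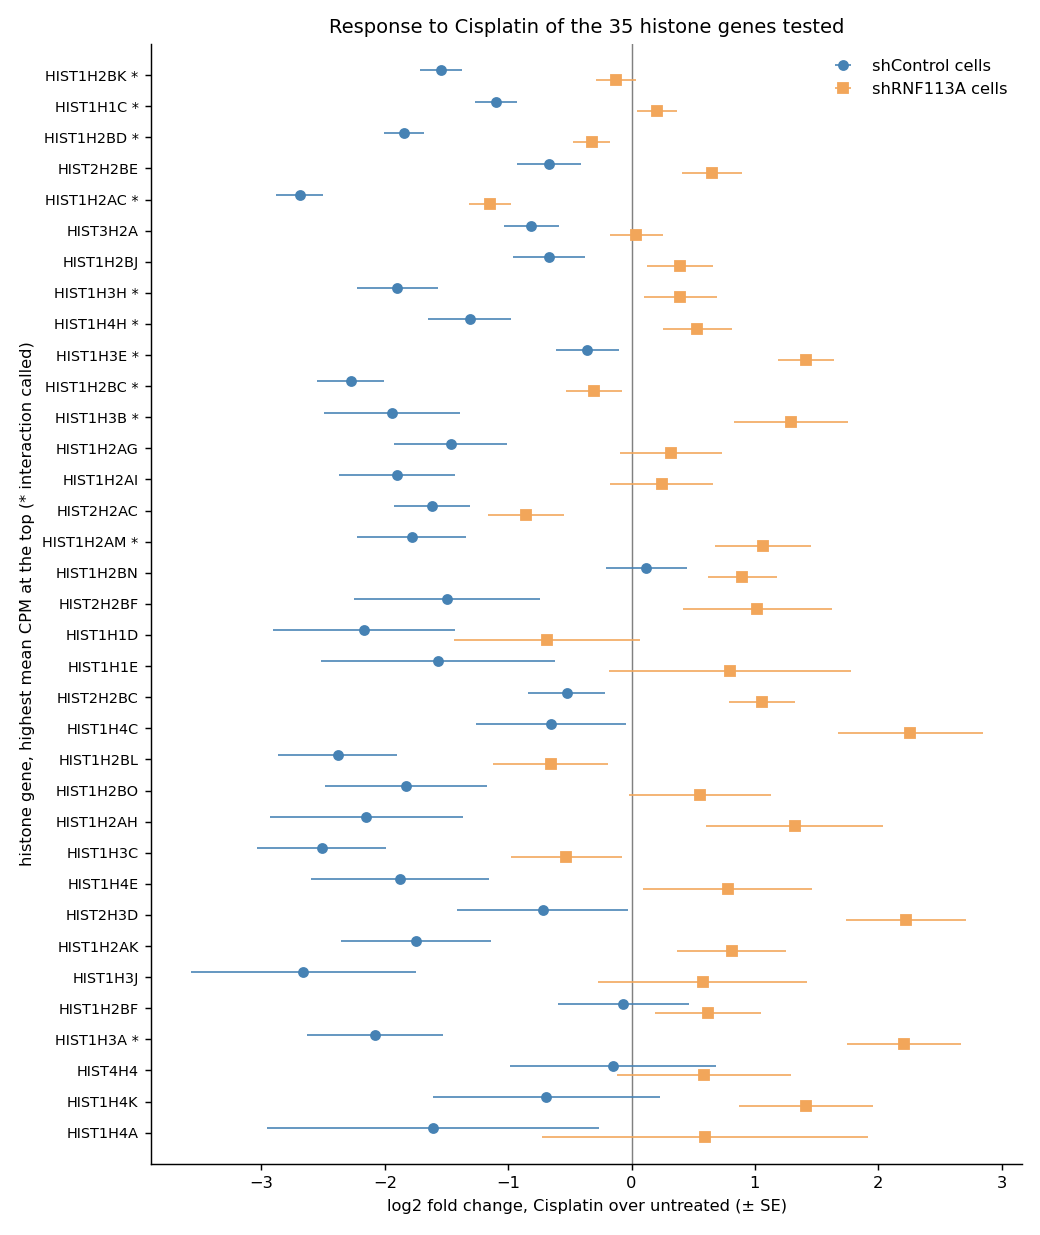
Log2 fold change after Cisplatin, ± SE, of the 35 histone genes tested, in shControl cells as circles and in shRNF113A cells as squares, ordered by mean CPM with the highest at the top. In 26 genes the value is below 0 in shControl cells and above 0 in shRNF113A cells, in 8 it is below 0 in both and in 1 above 0 in both, and asterisks mark the 11 genes with a called interaction.

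The difference between these responses was tested as the interaction of Cisplatin and depletion. It was called, in the direction of a higher value in shRNF113A cells, for 11 histone genes, and for 0 in the other direction. Over all genes 0.769% were called higher and 0.508% lower, so 11 of the 118 genes called higher were histone genes. The median interaction was 1.97 on the log2 scale for the histone genes and 0.00 for all genes. The called genes were HIST1H2BK, HIST1H1C, HIST1H2BD, HIST1H2AC, HIST1H3H, HIST1H4H, HIST1H3E, HIST1H2BC, HIST1H3B, HIST1H2AM and HIST1H3A. All were of the HIST1 cluster, as were 28 of the 35 genes tested. The largest values among the called genes were 4.29 ± 0.72 for HIST1H3A (adjusted p = 0.0118), 3.23 ± 0.72 for HIST1H3B (adjusted p = 0.0287) and 2.85 ± 0.59 for HIST1H2AM (adjusted p = 0.0228). HIST1H2BK had an interaction of 1.42 ± 0.23 (adjusted p = 0.0118) and HIST1H1C of 1.30 ± 0.24 (adjusted p = 0.0153). The count was 17 without shControl untreated replicate 2, and 7 without shRNF113A untreated replicate 1 or shRNF113A Cisplatin replicate 3. Of the tested genes with a promoter match, 3 of 10 with ATTTGCA and 7 of 18 without it had a called interaction.

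Among the 12 genes with the highest CPM, HIST1H3H, HIST1H4H and HIST1H2BC also had a called interaction. HIST1H3H, an H3 gene, was at 0.940, 2.06 and 1.75 CPM in untreated and 0.579, 0.385 and 0.319 CPM in treated shControl cells, and at 1.83, 1.79 and 1.48 CPM and 2.58, 1.70 and 2.43 CPM in shRNF113A cells. Its interaction was 2.29 ± 0.44 (adjusted p = 0.0187). HIST1H4H, an H4 gene, was at 0.359, 0.662 and 0.928 CPM, then 0.210, 0.313 and 0.255, then 1.46, 1.31 and 1.38, then 2.20, 2.16 and 1.65 CPM in the same order of conditions (1.85 ± 0.44, adjusted p = 0.0368). HIST1H2BC, an H2B gene, was at 0.912, 0.943 and 1.19 CPM, then 0.263, 0.216 and 0.149, then 1.61, 1.79 and 1.29, then 1.36, 1.21 and 1.23 CPM (1.97 ± 0.35, adjusted p = 0.0142). In all 3 genes the treated shControl libraries were the lowest, and they did not overlap with any other condition.

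HIST2H2BE, HIST1H2BJ and HIST3H2A were among these 12 without a called interaction. HIST2H2BE was at 2.51, 2.47 and 2.89 CPM in untreated and 2.08, 1.11 and 1.77 CPM in treated shControl cells, and at 4.16, 5.09 and 5.01 CPM and 6.69, 5.56 and 10.2 CPM in shRNF113A cells (interaction of 1.32 ± 0.36, adjusted p = 0.0574). Its interaction was called with a replicate block (1.30, adjusted p = 0.0425), by DESeq2 (1.30, adjusted p = 0.0119) and without shControl untreated replicate 2 or shRNF113A Cisplatin replicate 2. HIST1H2BJ was at 1.13, 1.10 and 1.14 CPM, then 1.03, 0.577 and 0.532, then 2.01, 2.07 and 2.46, then 2.46, 2.23 and 3.93 CPM (1.06 ± 0.40). HIST3H2A, from the small HIST3 cluster, was the flattest, at 1.60, 2.42 and 2.17 CPM, then 1.5, 0.890 and 1.15, then 2.14, 2.31 and 2.18, then 2.07, 2.26 and 2.51 CPM (0.85 ± 0.31). Its shRNF113A libraries and its untreated shControl libraries overlapped.

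**Figure D4:**
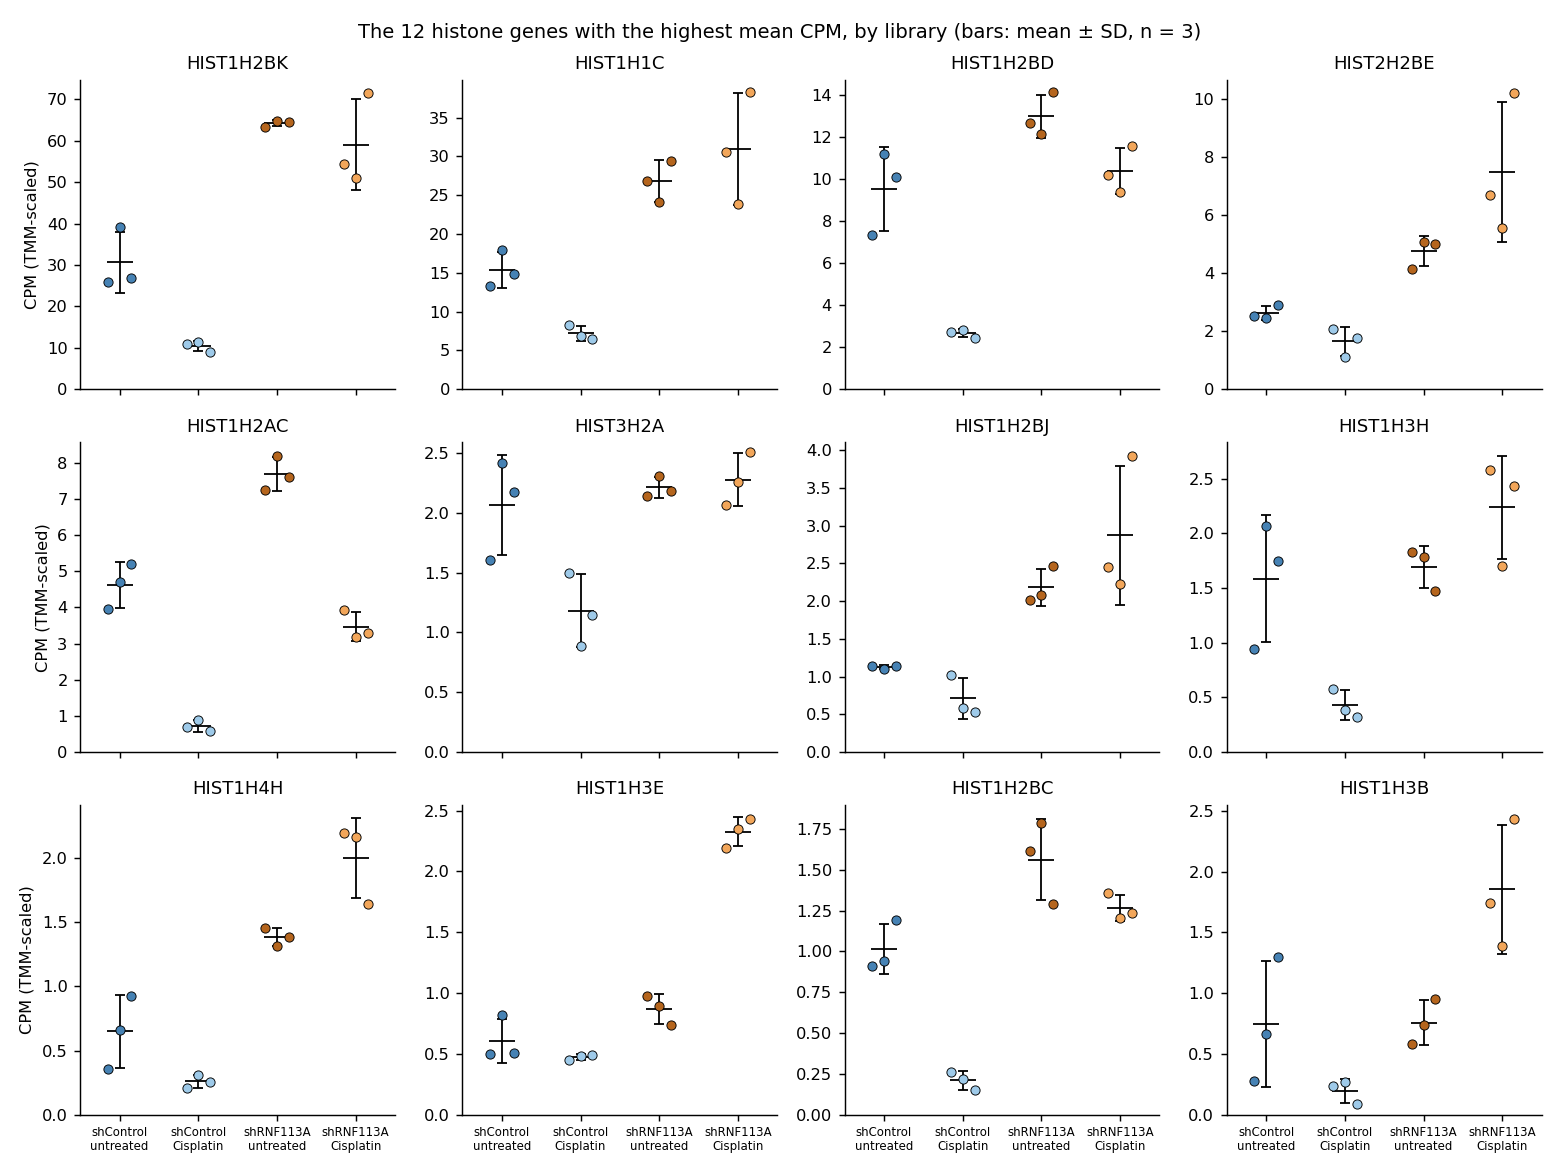
CPM of the 12 histone genes with the highest mean CPM in each of the 12 libraries, with points for libraries and bars for the mean ± SD of 3 libraries, each panel on its own axis from 0. All 3 treated shControl libraries lie below all untreated shControl libraries in every panel, and the treated shRNF113A libraries lie below the untreated ones in HIST1H2AC and HIST1H2BD.

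Depletion was compared within each treatment. In untreated cells 3 histone genes were higher in shRNF113A than in shControl cells and 0 were lower, against 3.7% and 4.96% of all genes. They were HIST1H2BN (1.13 ± 0.31, adjusted p = 0.0192), HIST1H4H (1.08 ± 0.30, adjusted p = 0.0177) and HIST1H2BK (1.07 ± 0.16, adjusted p = 0.000593). The median log2 fold change was 0.10 for the histone genes and 0.00 for all genes, and the count was 0 without shControl untreated replicate 1. HIST1H1C at 0.80 ± 0.17 and HIST1H2AC at 0.73 ± 0.17 did not reach the fold limit, although none of their libraries overlapped between the 2 conditions.

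After Cisplatin 26 of 35 histone genes were higher in shRNF113A than in shControl cells and 0 were lower, against 6.9% and 5.42% of all genes. The median log2 fold change was 2.14 against -0.01 for all genes, and the libraries did not overlap in 33 of the 35 genes, against 28.9% of all genes. These treated shControl libraries also enter the comparison with untreated shControl cells above. HIST1H2BK was 2.49 ± 0.17 higher on the log2 scale (adjusted p = 1.71e-06), HIST1H1C 2.11 ± 0.18 (adjusted p = 7.09e-06) and HIST1H2AC 2.28 ± 0.19 (adjusted p = 8.03e-06). The largest values were 3.53 ± 0.68 for HIST1H4K (adjusted p = 0.00148), whose reads could belong to its near copy HIST1H4J, 3.50 ± 0.54 for HIST2H3D (adjusted p = 0.000407) and 3.25 ± 0.51 for HIST1H3A (adjusted p = 0.000411). HIST1H3B reached 3.25 ± 0.53. By class, the genes called were 1 of 3 for H1, 6 of 8 for H2A, 10 of 11 for H2B, 6 of 7 for H3 and 3 of 6 for H4.

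Fitted over both treatments without an interaction, depletion gave 18 histone genes higher and 0 lower, against 5.47% and 5.52% of all genes, with a median of 1.15 against 0.00. The largest were HIST1H4K (2.57 ± 0.55, adjusted p = 0.00196), HIST2H3D (2.21 ± 0.55, adjusted p = 0.00503) and HIST1H4H (1.94 ± 0.33, adjusted p = 0.000454). Fitted over both kinds of cell, Cisplatin gave 7 histone genes lower and 0 higher, against 11.2% and 10.3% of all genes, with a median of -0.38 against 0.03. The largest falls were those of HIST1H2AC (-1.84 ± 0.25, adjusted p = 1.95e-05), HIST1H2BL (-1.49 ± 0.40, adjusted p = 0.00467) and HIST1H1D (-1.44 ± 0.54, adjusted p = 0.0310). Both fits average over responses that differed between the 2 kinds of cell in the genes with an interaction.

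The form of the transcript in the RefSeq models was set beside these values. Gencode models differed for some genes that end at the stem-loop in RefSeq. HIST1H2AC, HIST1H2BC and HIST1H2BJ had 2 exons there, and HIST1H2BN had 3. The classes therefore do not tell which transcripts carry a poly(A) tail. Genes ending at the stem-loop held 39.0% to 54.3% of the summed histone CPM in a library, and spliced genes 40.9% to 57.4%. In shControl cells, 19 of 30 tested genes that end at the stem-loop and 2 of 3 spliced genes were called lower after Cisplatin, with medians of -1.68 and -1.55. After Cisplatin, 21 of 30 genes ending at the stem-loop and all 3 spliced genes were called higher in shRNF113A than in shControl cells, with medians of 2.13 and 2.49. Both genes that run past the stem-loop were also called higher there. The summed level of the 64 genes ending at the stem-loop was 17.7, 15.4 and 13.8 CPM in treated shControl and 63.1, 52.8 and 76.3 CPM in treated shRNF113A cells.

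RNAs without a poly(A) tail were read in the same libraries. Of 13 such RNAs listed, 10 were in the tables and 6 were tested. After Cisplatin 5 of these 6 were called higher in shRNF113A than in shControl cells and 0 lower, against 6.9% and 5.42% of all genes. Their median was 2.83 on the log2 scale. RPPH1, the RNA of RNase P, was at 1.71, 0.505 and 1.00 CPM in treated shControl and at 6.98, 6.46 and 12.1 CPM in treated shRNF113A cells. SCARNA2 was at 0 to 0.131 CPM in the other 9 libraries and at 0.549 to 0.711 CPM in treated shRNF113A cells, and RNU12 at 0 to 0.0638 and 0.309 to 0.485 CPM. The summed CPM of the 10 RNAs was 0.940, 4.97 and 18.0 in untreated shControl, 5.87, 1.73 and 2.17 in treated shControl, 2.14, 3.18 and 11.9 in untreated shRNF113A and 15.3, 14.5 and 24.2 in treated shRNF113A cells. Between treated and untreated shRNF113A cells 4 of the 6 were called higher with Cisplatin (median of 2.22 on the log2 scale). Of the 30 tested histone genes that end at the stem-loop, 7 were called higher and 1 lower there (median of 0.58). Over all genes 11.6% were called higher and 11.5% lower. The summed level of the 64 histone genes that end at the stem-loop overlapped, at 52.1 to 62.2 CPM without and 52.8 to 76.3 CPM with the drug. In shControl cells 0 of the 6 RNAs were called after Cisplatin (median of -0.68), and their sums overlapped. Of the 30 histone genes 19 were called lower (median of -1.68), against 10.6% of all genes. The sums of the 64, at 29.5 to 48.9 and 13.8 to 17.7 CPM, did not overlap. The median interaction was 2.37 for the 6 RNAs, with 0 called, and 2.05 for the 30 histone genes, with 9 called higher. The part of poly(A) selection in the histone values was not tested.

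**Figure D5:**
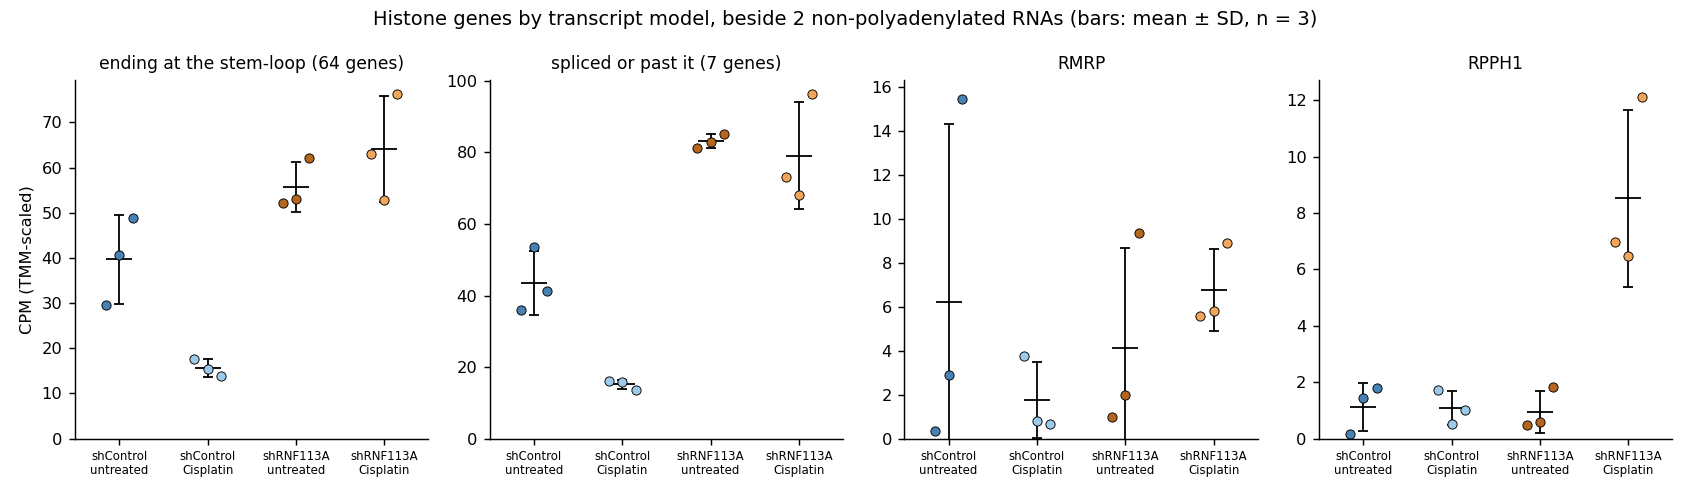
Summed CPM of the 64 histone genes ending at the stem-loop and of the 7 spliced or running past it, and CPM of RMRP and RPPH1, in each library, with points for libraries and bars for the mean ± SD of 3 libraries, ended at 0 where they would run below it. Both histone groups are lowest in the treated shControl libraries, RPPH1 is highest in the treated shRNF113A libraries, and RMRP reaches 15.5 CPM in shControl untreated replicate 3.

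Reads inside the gene span but outside annotated exons were counted in a second pair of tables with Gencode models. At least 10 genic reads in every library were found for 14 histone genes, and 8 of these had any read outside exons. In HIST1H2BK the share was 71.0% to 78.9% in every library. The exon counted there covers 381 bases of a span of 8547 and leaves out the distal RefSeq exon. Where in the span these reads lie was not tested. None of the 4 comparisons of HIST1H2BK separated. In HIST1H2BD the share was 8.2%, 4.8% and 7.9% in untreated and 4.9%, 5.8% and 8.5% in treated shControl cells, 6.2%, 7.4% and 7.7% in untreated shRNF113A cells, and 14.1%, 16.3% and 17.5% in treated shRNF113A cells. The treated shRNF113A libraries of HIST1H2BD were above all others (8.82 points above untreated shRNF113A cells; exact permutation test, two-sided, p = 0.10, the smallest p that 3 against 3 allows). HIST1H2AC, whose Gencode model has a distal exon that the RefSeq model lacks, went from 33.2%, 34.2% and 35.2% to 43.2%, 39.7% and 43.6% in shControl cells and from 35.8%, 40.2% and 31.2% to 47.8%, 40.7% and 48.1% in shRNF113A cells (both p = 0.10, exact permutation test). Over the 32 comparisons of 8 genes, 7 did not overlap, and none can pass a threshold at this size. For all genes together the share was 7.09% to 7.39% in treated shRNF113A libraries and 1.66% to 4.41% in the other 9, and reads of other genes inside these spans were not told apart.

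The genes that process histone transcripts stayed within the fold limit. Of 18 genes of histone 3' end processing, 0 were called in any of the 7 comparisons (edgeR). With Cisplatin, 9 rose and 4 fell when only the adjusted p under 0.05 was required. The share of all genes that passed this looser rule is not given here. These counts are therefore not read as a response of the list. SLBP, which binds the stem-loop, was at 104, 77.2 and 99.2 CPM in untreated and 59.3, 62.0 and 54.4 CPM in treated shControl cells, and at 78.0, 70.9 and 80.7 CPM and 55.1, 60.2 and 52.3 CPM in shRNF113A cells. Its log2 fold change with Cisplatin was -0.57 ± 0.08 (adjusted p = 3.52e-05) and its interaction 0.22 ± 0.15 (adjusted p = 0.444). NPAT, the activator of histone transcription, had a depletion value of -0.30 ± 0.08 (adjusted p = 0.00957), and CASP8AP2, a partner of NPAT in histone locus bodies, of -0.09 ± 0.08 (adjusted p = 0.356).

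Of 40 genes of DNA replication, 11 were called lower with Cisplatin and 0 higher, against 11.2% and 10.3% of all genes. The falls were led by MCM6, a subunit of the replicative helicase (-2.07 ± 0.12, adjusted p = 6.37e-09 in edgeR), and POLA1, the catalytic subunit of DNA polymerase alpha (-1.91 ± 0.14, adjusted p = 4.35e-08). The transcription factor gene E2F2 followed (-1.76 ± 0.12, adjusted p = 2.43e-08). In shControl cells 12 were called lower and in shRNF113A cells 11, against 10.6% and 11.5% of all genes tested. Without the fold limit, at an adjusted p under 0.05, 29 of the 40 were lower and 3 higher in shControl cells. In shRNF113A cells 27 were lower and 5 higher at that limit, for which the share of all genes is not given here. The 40 genes had medians of -0.63 and -0.62 on the log2 scale, and 0 had a called interaction (median 0.05). At an adjusted p under 0.05 without the fold limit, the interaction was positive for 2 and negative for 1 of the 40. The histone genes had medians of -1.61 and 0.59 in the same 2 comparisons, which share their libraries with those of the replication genes.

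Among 12 replacement histones, 10 were tested. CENPA, the centromeric H3, fell with Cisplatin (-1.22 ± 0.10, adjusted p = 1.46e-07). None of the 10 was called with depletion fitted over both treatments or for the interaction. In treated cells 1 of the 10 was called lower with depletion, against 5.42% of all genes. Of 18 histone chaperones only HJURP, which loads CENPA, was called with Cisplatin (-1.08 ± 0.22, adjusted p = 0.000539). Of 19 polyadenylation genes, CLP1 (2.09 ± 0.11, adjusted p = 2.51e-09) and RBBP6 (1.05 ± 0.11, adjusted p = 1.51e-06) rose with Cisplatin, and PABPN1, the nuclear poly(A) binding protein, with depletion (1.02 ± 0.20, adjusted p = 0.00108). None of these 19 genes had a called interaction. Over all genes 10.3% were called higher and 11.2% lower with Cisplatin, and 5.47% higher with depletion. The few calls among these replacement histones, chaperones and polyadenylation genes are thus not read as results about the lists.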

How the data were processed

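RNA of A549 cells in 4 conditions with 3 libraries each was sequenced as stranded, poly(A)-selected pairs of reads. The tools named in the submitters' processing notes include bcl2fastq 2.17, STAR 2.5.2b, HTSeq and Cufflinks, with the genome hg19. The deposited files hold raw counts per gene on 3 strand settings, and raw counts of exonic and genic reads by HTSeq on Gencode v19 protein-coding models. Splicing event tables, with the authors' own comparisons (p-values, differences of inclusion), were not used here, since each cell holds values of several libraries that it does not name. Counts on the reverse strand setting were taken, for which 0.619% to 2.33% of histone read pairs lay on the opposite strand. Read pairs not assigned to a gene, 14.0% to 22.6% of each library, stayed out of library sizes.

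Genes kept by filterByExpr (15352) were scaled by TMM and fitted with edgeR 4.0.16. Cisplatin and depletion came from an additive model, and the interaction and the 4 paired conditions from group means over all 12 libraries. A call needed a Benjamini-Hochberg adjusted p under 0.05 over all genes and a fold change of at least 2. CPM are TMM-scaled, and p-values measure the spread between these libraries. Sequences were read from GRCh37 and from RefSeq promoters by scripts, with the stem-loop required to pair over 6 bases. Scripts were tested on simulated data.

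The histone genes and other lists were chosen with earlier results of these data known. Named with every library were the 12 genes of highest mean CPM, and named with a fold change those and the 3 largest rises and falls called in each comparison (from other lists, the 3 largest called changes with Cisplatin and with depletion, and SLBP, NPAT and CASP8AP2). Other genes named, such as RMRP, RPPH1, SCARNA2, RNU12 and KRT19, were chosen after their values were seen. For Cisplatin in shControl cells, equal replicate numbers deviated together over 10948 genes (correlations of 0.64, 0.74 and 0.49). These numbers were therefore read as pairing the libraries there, but not in shRNF113A cells (0.40, -0.05 and 0.30). The main calls treated all libraries as unpaired, also those of shControl cells. Pairing entered only the alternatives with a replicate block. Alternatives were another scaling, filter, tool (DESeq2 1.42.0), strand setting, a replicate block, fits of only the 6 libraries compared, and leaving out each library.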

Additional observations from a re-analysis of the deposited data

Results flagged for a closer look

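The response to Cisplatin differed between the 2 kinds of cell in 11 histone genes, by the interaction term of edgeR's quasi-likelihood test with Benjamini-Hochberg adjustment over 15352 genes. The log2 fold change in shRNF113A cells minus that in shControl cells was 4.29 for HIST1H3A, 3.23 for HIST1H3B, 2.85 for HIST1H2AM, 2.29 for HIST1H3H and 1.97 for HIST1H2BC. It was 1.85 for HIST1H4H, 1.77 for HIST1H3E, 1.54 for HIST1H2AC, 1.52 for HIST1H2BD, 1.42 for HIST1H2BK and 1.30 for HIST1H1C. HIST1H3A rests on 1 to 19 read pairs in a library.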

How the results depend on the processing

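With at least 10 counts in every library only 10 histone genes were tested, and the counts called were 3 for Cisplatin, 8 for depletion, 6 for the interaction, 6 for Cisplatin in shControl cells, 2 for Cisplatin in shRNF113A cells, 1 for depletion in untreated cells and 8 for depletion in treated cells. Depletion in untreated cells gave 8 without the limit on the fold change. Fits of only the 6 libraries compared tested 21 histone genes for Cisplatin in shControl cells and called 12, or 13 with the replicate block, an alternative chosen after seeing the data; for depletion in untreated cells they called 1 with and without the block. With all 12 libraries the replicate block moved no count by over 1.5 times, and HIST2H2BE then had a called interaction (1.30, adjusted p = 0.0425 in edgeR). Without 1 library the counts ran from 5 to 9 for Cisplatin, 15 to 25 for depletion, 7 to 17 for the interaction, 12 to 23 for Cisplatin in shControl cells, 6 to 10 for Cisplatin in shRNF113A cells, 0 to 4 for depletion in untreated cells and 23 to 28 for depletion in treated cells. The causes were not tested.

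Without the highest gene of a class, the log2 ratio of the summed level after Cisplatin was -1.82 for H1 and -1.35 for H2A in shControl cells, and 0.23 for H2A and 1.18 for H3 in shRNF113A cells. Values near 0 changed sign, none of them called: with Cisplatin, HIST1H3B was 0.014 with library size scaling and 0.033 with the replicate block, HIST1H2BJ was 0.00078 with library size scaling, and HIST2H2BE was -0.0134 in DESeq2. Leaving out 1 library, the Cisplatin values ran from -0.17 to 0.18 for HIST2H2BE, -0.40 to 0.37 for HIST1H3B, -0.38 to 0.0040 for HIST1H4H, -0.29 to 0.025 for HIST1H2BJ and -0.57 to 0.078 for HIST1H2AM. The depletion values ran from -0.35 to 0.69 for HIST1H1D, -0.080 to 0.45 for HIST1H2BL and -0.26 to 0.87 for HIST1H3J. Low counts limit the H3, H4 and H1 genes outside the 12 with the highest CPM.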
